A study of Rattus norvegicus with 3 samples.

Results

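Axon guidance ligands and receptors were followed by cell class and genotype in single nuclei of the rat heart. The members were all genes whose symbol belonged to the semaphorin, plexin, neuropilin, Slit, Robo, netrin, Unc5, ephrin or Eph receptor families, which gave 69 of the 22250 genes in the files. They comprised 20 semaphorins, 9 plexins, 2 neuropilins, 3 Slits, 4 Robos, 6 netrins, 4 Unc5 receptors, 8 ephrins and 13 Eph receptors. The rule reads symbols alone, and these families were taken up with earlier results of the data known.

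Axon guidance genes encode secreted or membrane-bound cues and the receptors that read them, first described in the steering of growing axons. Secreted class 3 semaphorins bind neuropilins, which signal through plexins, while most membrane semaphorins bind plexins directly. Slits bind Robos, netrins bind Unc5 receptors and Dcc, and ephrins on one cell bind Eph receptors on the next. In heart and vessels the same families are known for the patterning of arteries, veins and lymphatic vessels, and for the guidance of cardiac nerves by Sema3a.

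Nuclei came from the heart apex, with part of the septum and of both ventricles, of 12-month-old Sprague Dawley rats, and were sorted by flow cytometry before droplet sequencing. WT rats carried the intact dystrophin gene. BMD rats, a model of Becker muscular dystrophy, carried a Dmd deletion made with CRISPR/Cas9 that keeps the reading frame, and DMD rats, a model of Duchenne muscular dystrophy, carried a Dmd deletion of another exon. Each genotype had 1 library, so no test between genotypes was possible, and each interval given here covers counting error only and not the spread between rats. Both the BMD and the DMD ratios were taken over the same WT library. The WT counts were read from an aggregate of the 3 libraries and the mutant counts from their own files. None of the named ratios recomputed within that aggregate changed sign. Its mutant counts were 76.1% (BMD) and 92.9% (DMD) of those same counts, so this cannot show whether WT was counted otherwise.

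The libraries held 19215994 to 21609238 unique molecular identifiers (UMIs), and 24664 barcodes were taken as nuclei, whose median depth was 1213 (WT), 1487 (BMD) and 1229 (DMD). Between 12 and 20 nucleus barcodes were shared by any pair of libraries. Clustering without the 69 members gave 15 clusters, of which 11 were named as like a cell type from marker lists and 4, with 1967 nuclei, were left unnamed. The cardiomyocyte-like class held 4670 nuclei, the fibroblast-like class 7538, the endothelial-like class 4978 in 2 clusters, the pericyte- or smooth muscle-like class 1688 and the macrophage-like class 1673. Smaller classes were T, B or NK cell-like with 817 nuclei, lymphatic-like with 598, endocardial-like with 547, Schwann-like with 107 and monocyte- or neutrophil-like with 81. Levels are CPM, the UMIs of a gene per 1000000 UMIs of the class in a library, and are compared within a gene, since nuclear counts are not per length. Dmd itself had 16446 CPM in WT against 20531 in BMD and 19429 in DMD cardiomyocyte-like nuclei, so its nuclear count did not tell the deletions from WT.

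Most members that were well counted had 1 class in which they were highest in all 3 libraries. With at least 100 UMIs in a class as the minimum, 48 members passed in at least 1 class. Of these, 31 (64.6%) had the same leading class in WT, BMD and DMD, against 32.9% of all 11073 genes that passed, a background that includes the genes used for clustering. In 14 members (29.2%) the leading class was at least 2-fold above the next class in each library, against 11.2% of those genes. Lymphatic-like nuclei led for 8 members, endothelial-like for 7, cardiomyocyte-like for 6, pericyte- or smooth muscle-like for 3, macrophage-, T, B or NK cell- and Schwann-like for 2 each, and endocardial-like for 1. Fibroblast-like nuclei, the largest class, led for 0 members in every library. Robo1 and Slit3, both on average highest there, were close behind or ahead in another class in some library.

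**Figure D1:**
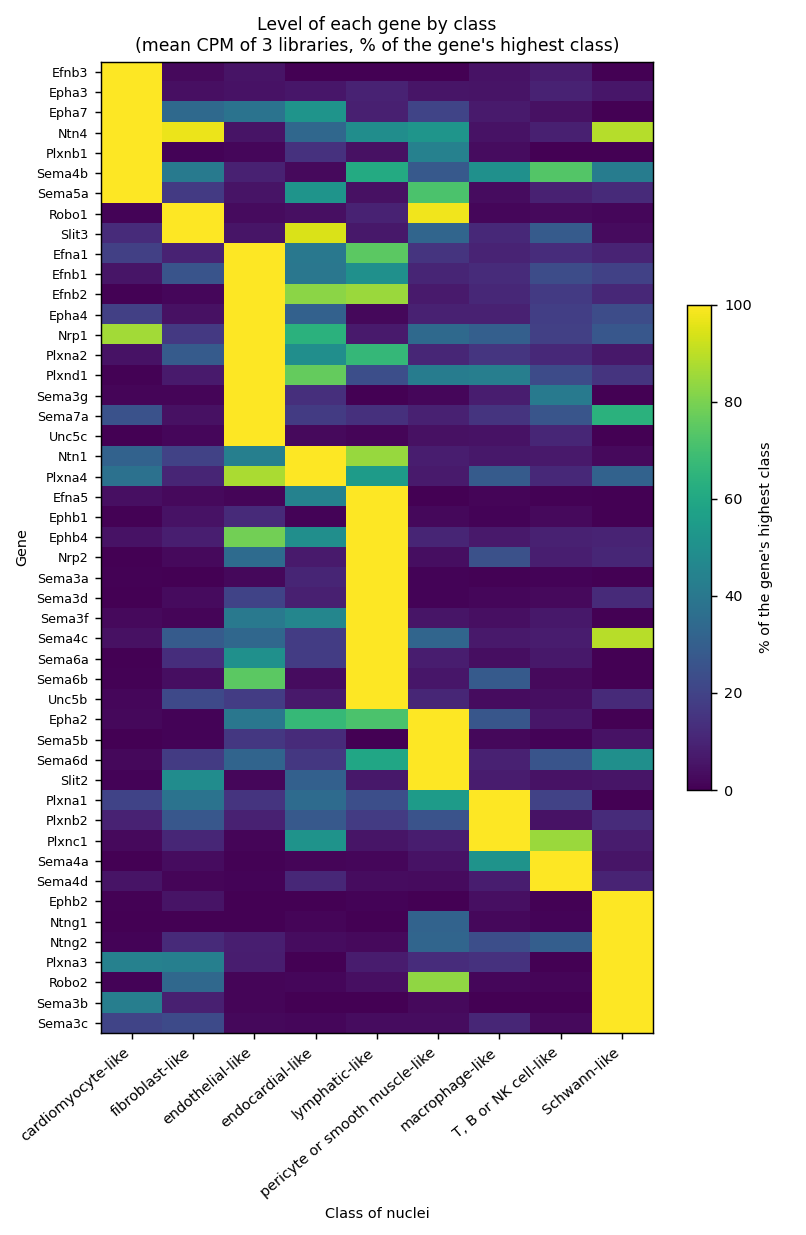
Rows are the 48 members that passed the count minimum and columns are 9 classes of nuclei; color gives the mean CPM of the 3 libraries as a percent of the gene's own highest class. Lymphatic-like nuclei are brightest for Sema3a, Sema3d, Nrp2 and Unc5b, cardiomyocyte-like nuclei for Efnb3 and Epha3, and T, B or NK cell-like nuclei for Sema4d and Sema4a.

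Sema3a, a secreted ligand of the neuropilin-1 and plexin-A receptor complex, was the member most tied to lymphatic-like nuclei. WT reached 2115 CPM there (1887 to 2363, exact 95% Poisson interval), while BMD reached 3447 (3259 to 3643) and DMD 3430 (3214 to 3656). The lymphatic-like level was lowest in WT, and the log2 ratios were 0.71 (0.53 to 0.89) for BMD and 0.70 (0.51 to 0.89) for DMD. No share of all genes was computed for this class, and its ratios were not recomputed under other processing. Endocardial-like nuclei came next, with 217 CPM in WT against 393 in BMD and 306 in DMD, so that lymphatic-like nuclei were at least 8.8-fold higher in each library. With each nucleus thinned to 500 UMIs, 49.6% of WT, 57.2% of BMD and 48.0% of DMD lymphatic-like nuclei had a Sema3a UMI, against 0.0282%, 0.422% and 0.516% of fibroblast-like nuclei. Before thinning, the shares in lymphatic-like nuclei were 62.6%, 75.9% and 64.9%, and their median depths were 879, 1242 and 1115 UMIs. The thinned shares of lymphatic-like nuclei had overlapping exact intervals in the 3 libraries, while their CPM did not overlap between WT and the others.

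Other members led by lymphatic-like nuclei were ligands and receptors of several families. Sema3d, a further class 3 semaphorin, had 1328 CPM in WT against 1462 in BMD and 1318 in DMD, at least 4.8-fold above the next class in each library. Nrp2, the neuropilin of lymphatic endothelium and a receptor for Sema3f, had 1532, 1478 and 1271 CPM in WT, BMD and DMD. The netrin receptor Unc5b had 664, 502 and 648 CPM, and the ephrin-B receptor Ephb1 had 285, 228 and 218 CPM. Apart from Sema3a, these lymphatic-like levels differed by less than 1.5-fold from WT in either mutant library. Nrp1, the main receptor of Sema3a, had only 74.6, 162 and 131 CPM there, against 1986, 1770 and 1392 CPM in endothelial-like nuclei.

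Efna5, a membrane-anchored ephrin-A ligand, was counted in lymphatic-like nuclei of 2 libraries and not of the third. WT had 50 UMIs (339 CPM) in 34 nuclei, DMD had 82 UMIs (299 CPM) in 51 nuclei, and BMD had 0 UMIs in 257 nuclei. Against a floor of 3 UMIs in the BMD library, which is 8.23 CPM, the Efna5 level was 41.2-fold higher in WT and 36.3-fold higher in DMD. These folds leave out the counting error of the WT and DMD levels, so they are not bounds. The gene was not absent from the BMD library, since its cardiomyocyte-like nuclei had 34 Efna5 UMIs and its endocardial-like nuclei 17.

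**Figure D2:**
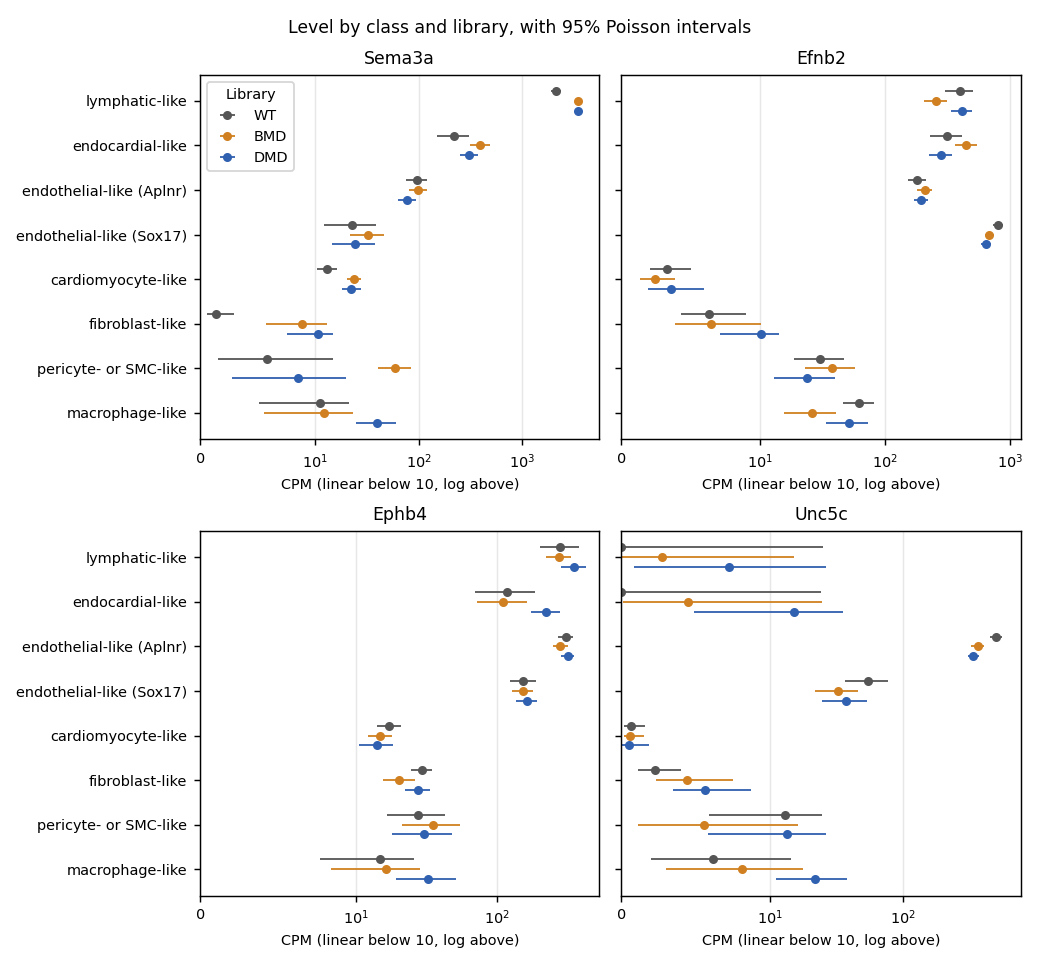
Points are CPM and bars are 95% Poisson intervals of Sema3a, Efnb2, Ephb4 and Unc5c in 8 groups of nuclei (vertical axis) by library (color); the horizontal axis is linear below 10 CPM and logarithmic above. Sema3a was highest in lymphatic-like nuclei, with WT at 2115 CPM below both mutant libraries. Efnb2 and Unc5c were highest in opposite endothelial-like clusters.

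The endothelial-like nuclei formed 2 clusters, of which one was led by Sox17, Btnl9 and Gja5, genes of arterial endothelium in the case of Sox17 and Gja5, and the other by Aplnr and Slco2a1, with Aplnr a gene of venous and capillary endothelium. Since the members took no part in the clustering, their split between the clusters was not set by it, but it is a description of clusters and not a test. Of 28 members with at least 100 UMIs in both clusters together, 7 (Plxna2, Ephb1, Epha4, Efnb2, Sema7a, Unc5b and Sema3g) were at least 1.5-fold higher with Sox17 in each of the 3 libraries, against 4.28% of all genes. Another 10 (Unc5c, Sema5b, Sema3d, Sema3a, Ephb4, Efnb1, Sema6b, Epha2, Ntn1 and Sema6a) were at least 1.5-fold higher with Aplnr in each library, against 5.61% of all genes.

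Efnb2, the ephrin of arterial endothelium, had 796 CPM in WT against 680 in BMD and 638 in DMD in the Sox17 cluster, and 181, 206 and 194 CPM in the Aplnr cluster. The log2 difference between the clusters was 2.14 in WT and 1.72 in both BMD and DMD. Its venous receptor Ephb4 ran the other way, with 311, 285 and 320 CPM in the Aplnr cluster and 154, 154 and 164 CPM in the Sox17 cluster. After thinning, an Efnb2 UMI was present in 29.1% (WT), 25.6% (BMD) and 27.3% (DMD) of nuclei in the Sox17 cluster, against 8.01%, 8.70% and 7.89% in the Aplnr cluster and 0.338%, 0.301% and 0.473% of fibroblast-like nuclei. Unthinned shares in the Sox17 cluster were 39.0%, 41.6% and 37.3%, at median depths of 739, 981 and 829 UMIs. Efnb2 was not confined to the Sox17 cluster, and it also reached 393, 255 and 411 CPM in lymphatic-like nuclei.

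Unc5c, a netrin receptor known from repulsive axon steering, was the member most tied to the Aplnr cluster. In that cluster WT reached 501 CPM (453 to 553), BMD 365 (327 to 406) and DMD 339 (307 to 373), while the Sox17 cluster had 54.3, 32.5 and 37.3 CPM. WT was above both mutant libraries with no overlap of intervals, at a log2 ratio of -0.46 (-0.67 to -0.24) for BMD and -0.57 (-0.77 to -0.36) for DMD within the Aplnr cluster. Over both clusters the BMD ratio was -0.66 (-0.86 to -0.45), past 1.5-fold, and 667 of 1518 BMD against 849 of 1546 WT endothelial-like nuclei were in the Aplnr cluster. Thinned shares in the Aplnr cluster were 19.2%, 15.1% and 13.2% in WT, BMD and DMD, against 0.169%, 0.241% and 0.258% of fibroblast-like nuclei. Unthinned, they were 32.3%, 29.7% and 25.7%, at median depths of 846, 1240 and 1036 UMIs.

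Unc5b, another netrin receptor, lay on the Sox17 side. It had 251, 202 and 197 CPM in WT, BMD and DMD in the Sox17 cluster against 12.8, 27.1 and 34.4 CPM in the Aplnr cluster. The Unc5 receptors of endothelial-like nuclei were thus split, with a log2 difference between the clusters of at least 2.51 for Unc5b and at least 3.18 for Unc5c in every library. Among semaphorins, Sema3g was on the Sox17 side with 59.6, 57.3 and 59.1 CPM against 5.10, 1.09 and 3.20 CPM. Sema3d was on the Aplnr side with 394, 526 and 386 CPM against 71.9, 82.2 and 77.1 CPM. Epha4, an Eph receptor that binds ephrins of both classes, had 219, 331 and 244 CPM in the Sox17 cluster and 89.3, 55.4 and 85.7 CPM in the Aplnr cluster, a split that was widest in BMD at a log2 difference of 2.58.

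**Figure D3:**
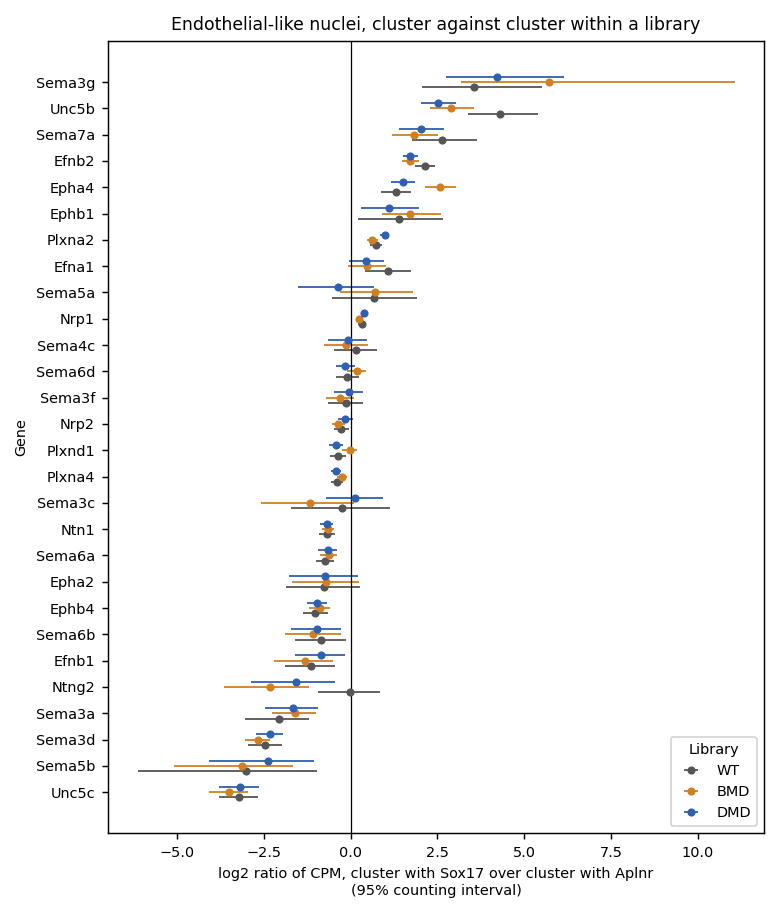
Points are log2 ratios of CPM of the Sox17 cluster over the Aplnr cluster for 28 members, within each library (color), with 95% counting intervals. Sema3g, Unc5b, Sema7a and Efnb2 lie on the right in all 3 libraries, and Unc5c, Sema5b, Sema3d and Sema3a on the left.

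Genotypes were compared in the 5 largest named classes, counting members at least 1.5-fold above or below WT among those with 100 or more UMIs in the class. In cardiomyocyte-like nuclei 28 members were compared. In BMD 3 members were higher (10.7%, against 7.25% of all genes compared in the class) and 10 were lower (35.7%, against 8.46%). In DMD 4 were higher (14.3%, against 8.70%) and 6 were lower (21.4%, against 9.71%). The median log2 ratio of the 28 members was -0.09 in BMD and -0.16 in DMD, beside -0.05 and -0.04 over all genes. Members lower in both libraries were Sema6d, Sema7a and Sema3f, and those higher in both were Epha4 and Sema3a.

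The nuclei of this class lay in different finer clusters by library. At a Leiden resolution of 1.0, the cluster led by Lsamp and Myh6 held 79.6% (WT), 52.6% (BMD) and 59.7% (DMD) of the class, and the cluster led by Hs3st2 and Xirp2 held 3.72%, 36.4% and 24.6%, with only 76 WT nuclei. Within the Lsamp cluster, 12 of the 13 BMD calls and 10 of the 10 DMD calls kept their direction, and 8 and 10 stayed past 1.5-fold. Within the Hs3st2 cluster 9 and 8 kept their direction, and 8 and 4 stayed past the fold. How far this shift in clusters enters the class ratios below was not tested. Unc5b, the third member higher in BMD at a class log2 ratio of 0.75, was at -0.33 (-1.16 to 0.45) in the Lsamp cluster. It was at -0.43 (-1.40 to 0.69) in the Hs3st2 cluster and, from 2 WT and 3 BMD UMIs, at 1.86 in the Arl14epl cluster.

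**Figure D4:**
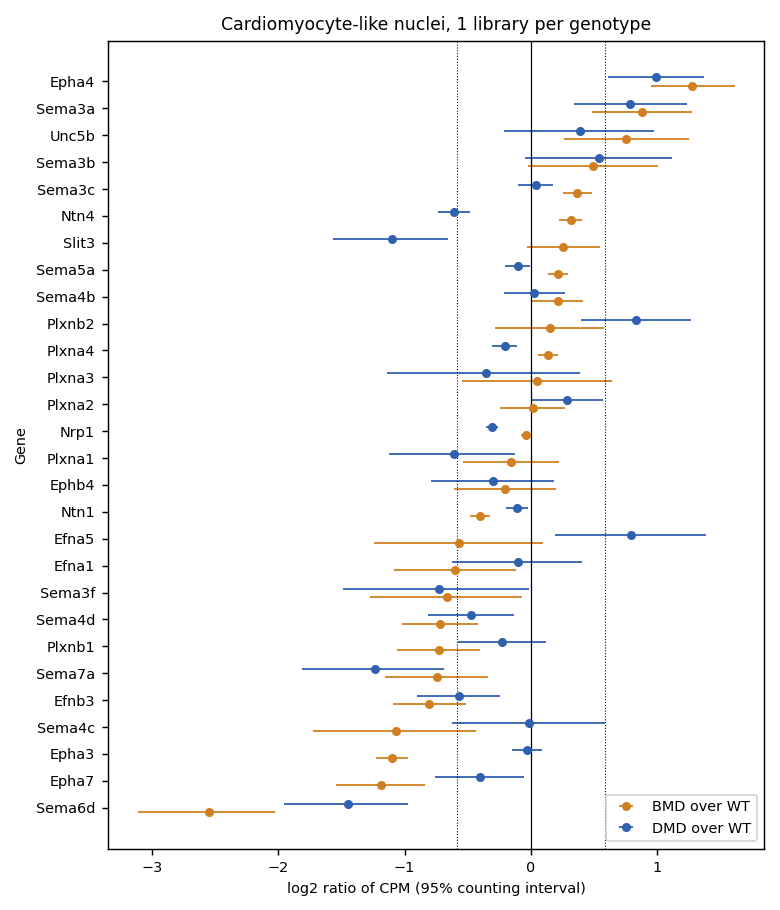
Points are log2 ratios of CPM in cardiomyocyte-like nuclei for BMD and DMD over the shared WT library (color), 28 members ordered by the BMD ratio; bars are 95% counting intervals and dotted lines mark 1.5-fold. Sema6d lies furthest to the left in both libraries, and Epha4 furthest to the right.

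Among cardiomyocyte-like nuclei, several membrane semaphorins were lower in 1 or both mutant libraries. Sema6d, a plexin-A1 ligand with a known part in heart morphogenesis, had 30.6 CPM in WT against 5.22 in BMD and 11.2 in DMD. The log2 ratios were -2.55 (-3.12 to -2.03) for BMD and -1.45 (-1.96 to -0.97) for DMD, and a UMI was present in 8.5% (WT), 2.1% (BMD) and 3.6% (DMD) of nuclei although WT nuclei were the shallowest. Averaged over nuclei in place of summed, the DMD ratio was -0.84, and with free RNA subtracted the ratios were -4.00 and -2.20. Within the Lsamp cluster they were -2.32 and -1.33, and within the Hs3st2 cluster -2.60 and -2.46. Within the Arl14epl cluster they were -2.98 and -0.20 (-1.70 to 1.11), from 19, 1 and 7 UMIs in WT, BMD and DMD. Sema7a, a lipid-anchored semaphorin that binds plexin-C1 and integrins, had 20.9, 12.5 and 8.91 CPM, with log2 ratios of -0.74 and -1.23 that were -0.40 and -0.86 within the Lsamp cluster. Sema4d, a ligand of plexin-B1, had 37.0, 22.5 and 26.7 CPM, and Plxnb1 itself had 31.9, 19.2 and 27.2 CPM. That ligand and receptor were both past 1.5-fold lower in BMD and in DMD neither was. With the mean over nuclei Plxnb1 in BMD was short of the fold at -0.55. Its BMD ratio was -0.83 in the Lsamp cluster, 0.35 (-0.96 to 2.03) in the Hs3st2 cluster and -0.31 (-1.93 to 1.08) in the Arl14epl cluster. In the same order, the BMD ratio of Sema4d was -0.51, -0.78 and -0.51. Sema4c, a plexin-B2 ligand, had 10.0, 4.77 and 9.93 CPM, and was past 1.5-fold lower in BMD alone. Sema3f was counted 62, 41 and 23 times in WT, BMD and DMD. Its DMD ratio of -0.73 (-1.49 to -0.02) was 0.083 in the setting without called doublets. That setting was clustered anew, and its cardiomyocyte-like class took in a further cluster of 395 nuclei, 226 from DMD and 59 from WT. Which of these changes moved the ratio was not tested.

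Secreted Sema3a was higher in both mutant libraries in cardiomyocyte-like nuclei. It had 12.98 CPM in WT against 23.9 in BMD and 22.4 in DMD, at log2 ratios of 0.88 (0.49 to 1.28) and 0.79 (0.34 to 1.24). These levels were far below those of lymphatic-like nuclei given above, and the free-RNA share of cardiomyocyte-like nuclei was at most 2.79% in WT against 4.61% in BMD and 5.06% in DMD. The ratios kept their direction with free RNA subtracted, at 0.81 and 0.78, and were 1.12 and 0.77 within the Lsamp cluster. In the Hs3st2 cluster the direction turned, with 40.96, 24.8 and 27.4 CPM from 13, 69 and 32 UMIs and log2 ratios of -0.73 (-1.59 to 0.25) and -0.58 (-1.55 to 0.48), both intervals holding 0. Sema5a and Sema4b, which cardiomyocyte-like nuclei led, had 354, 411 and 329 CPM and 58.2, 67.4 and 59.3 CPM, all within 1.5-fold of WT. Nrp1 was abundant, at 1592 CPM in WT against 1553 in BMD and 1287 in DMD, and its DMD ratio of -0.31 (-0.36 to -0.26) was short of 1.5-fold. Plxnb2 had 13.5, 14.9 and 23.9 CPM, higher in DMD at a log2 ratio of 0.83. Its DMD ratio was 0.92 in the Lsamp cluster, 0.12 (-1.21 to 1.70) in the Hs3st2 cluster and 1.02 (-0.23 to 2.24) in the Arl14epl cluster.

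The Eph receptors of cardiomyocyte-like nuclei took different directions. Epha3, a receptor of ephrin-A ligands and the member most tied to this class after Efnb3, had 238 CPM in WT against 111 in BMD and 233 in DMD. Over the whole class only BMD stood apart, at a log2 ratio of -1.10 (-1.23 to -0.97), while DMD was at -0.03 (-0.15 to 0.09). The BMD ratio was smaller within the finer clusters, at -0.67 (-0.82 to -0.52) in the Lsamp cluster and -0.68 (-1.28 to -0.03) in the Hs3st2 cluster. It was -0.21 (-0.71 to 0.26) in the Arl14epl cluster. The DMD ratio was past 1.5-fold higher in the Hs3st2 cluster, at 1.02 (0.43 to 1.66) from 27 WT and 201 DMD UMIs. In DMD it was 0.08 (-0.06 to 0.22) in the Lsamp cluster and 0.02 (-0.45 to 0.46) in the Arl14epl cluster. The WT level of Epha3 was 249 CPM in the Lsamp cluster and 85.1 CPM in the Hs3st2 cluster. Epha7, a receptor of the same class, had 33.6, 14.8 and 25.5 CPM, again lowest in BMD at -1.19 (-1.55 to -0.84). Epha4 had 16.9, 41.0 and 33.6 CPM and was highest in BMD, at log2 ratios of 1.28 (0.95 to 1.61) in BMD and 0.99 (0.61 to 1.37) in DMD. Within the Arl14epl cluster the Epha4 ratios were 1.03 (-0.27 to 2.31) and -0.14 (-1.98 to 1.44), from 13, 11 and 5 UMIs. The share of nuclei with an Epha4 UMI was 4.0% in WT against 9.9% in BMD and 7.7% in DMD, at median depths of 2763, 3754 and 3231 UMIs. Among the ephrins, Efnb3 had 41.9, 24.0 and 28.3 CPM, with log2 ratios of -0.80 in BMD and -0.57 in DMD, the second just short of 1.5-fold. Efna5 had 7.50, 5.07 and 12.98 CPM and was past 1.5-fold higher in DMD. Its DMD ratio was 1.07 within the Lsamp cluster. In the Hs3st2 cluster it was -1.29 (-2.54 to 0.02), from 10 WT and 15 DMD UMIs.

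Among the Slits and netrins of cardiomyocyte-like nuclei, Slit3 and Ntn4 were past 1.5-fold from WT in DMD alone. Slit3, a Robo ligand, had 28.9 CPM in WT against 34.6 in BMD and 13.5 in DMD, at a DMD log2 ratio of -1.10 (-1.57 to -0.65). Within the Lsamp cluster its BMD ratio was past 1.5-fold as well, at 0.71 (0.39 to 1.03), beside -1.23 in DMD. Ntn4, a netrin of basement membranes that binds laminin, had 270 CPM in WT against 337 in BMD and 177 in DMD, at log2 ratios of 0.32 (0.22 to 0.41) and -0.61 (-0.74 to -0.48). Both genes were highest in BMD and lowest in DMD. The DMD ratio of Ntn4 was short of 1.5-fold, at -0.58, with free RNA subtracted and with the mean over nuclei. It was -0.65 (-0.81 to -0.50) in the Lsamp cluster and -0.96 (-1.54 to -0.42) in the Arl14epl cluster. In the Hs3st2 cluster it was -0.22 (-0.60 to 0.18), an interval that holds 0. Ntn1, the classical netrin, had 472, 358 and 438 CPM, within 1.5-fold in both and further from WT in BMD, at log2 ratios of -0.40 and -0.11.

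Fibroblast-like nuclei had 29 members compared. In BMD 5 were higher (17.2%, against 5.55% of all genes) and 6 lower (20.7%, against 9.66%), and in DMD 3 were higher (10.3%, against 4.88%) and 4 lower (13.8%, against 4.50%). The members' median log2 ratio was -0.03 in BMD and -0.04 in DMD, beside -0.05 and -0.02 over all genes. Nrp2, Robo2 and Unc5b were past the fold upward in both libraries, and Sema6a and Epha7 downward in both. Nuclei over 5% mitochondrial UMIs were 13.5%, 16.9% and 20.8% of the class in WT, BMD and DMD. Without them Nrp2 in BMD, at 0.28, and Sema6a and Ntn1 in DMD, at -0.55 and -0.48, were short of the fold. Epha7, at -1.45 in BMD and -0.097 in DMD, was then below the count minimum. This setting was clustered anew, and its fibroblast-like class took in a cluster of 713 nuclei that also raised macrophage and endocardial markers. The part of that cluster in these values was not tested.

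Fibroblast-like nuclei were also spread unevenly over finer clusters. At a Leiden resolution of 1.0, the cluster led by Ltbp2, Tnc and Postn, matrix genes of activated fibroblasts in the case of Tnc and Postn, held 27.8% (WT), 56.0% (BMD) and 43.9% (DMD) of the class, and the cluster led by Abca8a and Bmper held 71.9%, 43.4% and 53.9%. Within the Ltbp2 cluster 10 of 11 BMD calls and 7 of 7 DMD calls kept their direction, and 9 and 5 stayed past 1.5-fold. Within the Abca8a cluster 11 and 7 kept their direction, and 6 and 3 stayed past the fold. Unc5b and Sema6a were nearest to the class values, at log2 ratios of 0.63 to 0.77 and of -0.95 to -0.50 over both clusters and both mutant libraries. Robo2 in BMD was at 0.62 and 0.27 in the Ltbp2 and Abca8a clusters, and in DMD at 0.48 and 1.06.

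The 3 members higher in both fibroblast-like libraries were all receptors. Unc5b had 93.2 CPM in WT against 151 in BMD and 153 in DMD, at log2 ratios of 0.69 (0.50 to 0.88) and 0.72 (0.54 to 0.90). Robo2, a Slit receptor, had 49.1, 82.4 and 92.1 CPM, at 0.75 (0.48 to 1.01) and 0.91 (0.66 to 1.15). Nrp2 had 18.8, 31.6 and 54.2 CPM, at 0.75 (0.32 to 1.18) and 1.53 (1.17 to 1.91). A single DMD nucleus held 24 of its 192 Nrp2 UMIs, and the DMD ratio was 0.92 and 0.23 within the Ltbp2 and Abca8a clusters, 0.69 at a Leiden resolution of 1.0 and 0.71 with at least 1000 UMIs a nucleus. Plxna4, the plexin partner of neuropilin-1, had 74.6, 130 and 110 CPM, past 1.5-fold in BMD and at a log2 ratio of 0.57 in DMD. Ephb2 had 8.36, 18.7 and 12.4 CPM, past the fold in BMD.

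Lower in fibroblast-like nuclei were mostly membrane semaphorins, plexins and, in DMD, netrins. Sema6a, a ligand of plexin-A2 and plexin-A4, had 124 CPM in WT against 64.1 in BMD and 79.9 in DMD, at log2 ratios of -0.95 (-1.19 to -0.71) and -0.63 (-0.84 to -0.43). Epha7 had 12.6, 4.41 and 8.19 CPM, with -1.52 (-2.51 to -0.64) and -0.63 (-1.32 to 0.03), the second interval holding 0. Sema4c had 61.4, 37.3 and 52.5 CPM, past the fold in BMD, as were Plxnd1, Plxnc1 and Plxnb2. Plxnc1 and Plxnb2, both barely past it at -0.59, were short of it with the mean over nuclei, at -0.55 and -0.54. With TMM scaling both were at -0.58. Plxnd1, at -0.70, was at -0.42 with at least 1000 UMIs a nucleus. Within the Ltbp2 and Abca8a clusters Plxnd1 was at -0.39 and -0.47, and Plxnc1 at 0.07 and -0.41. Ntn4 had 283 CPM in WT against 307 in BMD and 172 in DMD, at a DMD log2 ratio of -0.72 (-0.86 to -0.58). Ntn1 had 312, 279 and 206 CPM, at -0.60 (-0.73 to -0.47) in DMD. Ntn4 was thus lowest in DMD and at or above WT in BMD both here and in cardiomyocyte-like nuclei.

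The major Slit and Robo genes of fibroblast-like nuclei differed little. Robo1, the main Slit receptor there, had 602, 591 and 584 CPM in the WT, BMD and DMD libraries, and its log2 ratios were -0.03 (-0.11 to 0.06) and -0.04 (-0.12 to 0.04). Slit2 had 289, 294 and 322 CPM and Slit3 had 205, 208 and 216 CPM. The intervals of Robo1 kept any difference from WT in these libraries well below 1.5-fold, at the level of counting error.

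**Figure D5:**
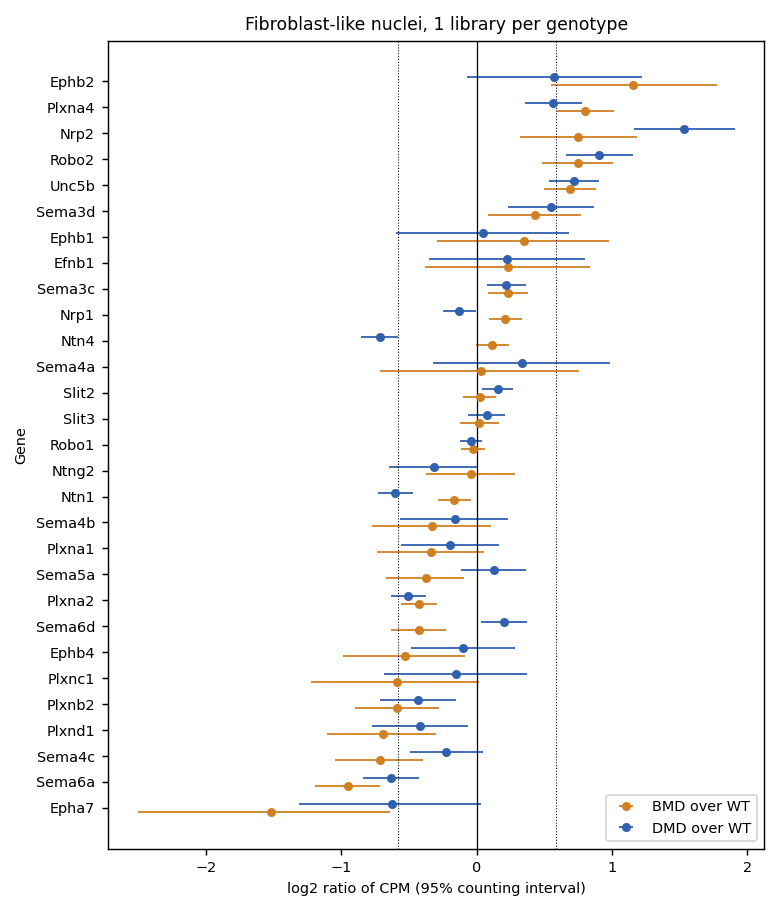
Points are log2 ratios of CPM in fibroblast-like nuclei for BMD and DMD over the shared WT library (color), 29 members ordered by the BMD ratio; bars are 95% counting intervals and dotted lines mark 1.5-fold. Robo1, Slit2 and Slit3 sit near 0 with short bars, Robo2, Unc5b and Nrp2 to the right, and Epha7 and Sema6a to the left.

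Endothelial-like nuclei showed fewer members past the fold. Of 28 compared, 1 was higher in BMD (3.57%, against 4.34% of all genes) and 3 were lower (10.7%, against 7.11%), while in DMD 1 was higher (3.57%, against 4.51%) and 3 were lower (10.7%, against 3.17%). Nuclei with over 5% mitochondrial UMIs, a sign of lower quality, were 6.53%, 10.5% and 17.4% of the class in WT, BMD and DMD. Without them 2 of the 4 DMD calls were lost, Ntng2 to the fold at -0.26 and Sema3c to the count minimum at 0.63, and with the mean over nuclei Efnb1 and Ntng2 were short of the fold at -0.58 and -0.46. Efnb1, an ephrin-B ligand, was lower in both, with 71.6 CPM in WT against 34.1 in BMD and 46.4 in DMD at log2 ratios of -1.07 (-1.55 to -0.60) and -0.63 (-1.05 to -0.20). Within the Aplnr cluster the Efnb1 ratios were -0.93 and -0.73, and within the Sox17 cluster, from 24, 18 and 24 UMIs, -1.11 (-2.08 to -0.17) and -0.45 (-1.33 to 0.43). Sema6a was lower in DMD, with 424, 335 and 261 CPM at -0.70 (-0.87 to -0.52), and its DMD ratio was -0.74 in the Aplnr cluster and -0.67 in the Sox17 cluster. Sema6b, of the same class, had 59.1, 35.2 and 46.9 CPM and was past the fold in BMD, at -0.75. With at least 1000 UMIs a nucleus its BMD ratio was short of the fold, at -0.18. Sema3c had 21, 26 and 57 UMIs, higher in DMD at 0.86 (0.11 to 1.65), and Ephb1 had 29, 73 and 54 UMIs, higher in BMD at 0.89 (0.25 to 1.56).

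The neuropilins of endothelial-like nuclei were lower in DMD without reaching 1.5-fold. Nrp1 had 1986 CPM in WT against 1770 in BMD and 1392 in DMD, at log2 ratios of -0.17 (-0.24 to -0.09) and -0.51 (-0.59 to -0.44). Nrp2 had 589, 510 and 404 CPM, at -0.21 (-0.34 to -0.07) and -0.54 (-0.69 to -0.40). The order WT, BMD, DMD held for Nrp1 and for Nrp2 in each of the 2 clusters. Plxna2 and Plxna4, which signal with neuropilins, had 851, 782 and 912 CPM and 899, 871 and 884 CPM. The plexin-D1 receptor of Sema3e had 498, 370 and 429 CPM, lowest in BMD.

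Pericyte- or smooth muscle-like nuclei led for Slit2, Sema5b and Sema6d. Of 18 members compared, 1 was higher in BMD (5.56%, against 4.94% of all genes) and 2 lower (11.1%, against 6.61%), and in DMD 2 were higher (11.1%, against 4.84%) and 2 lower (11.1%, against 4.84%). The counts of both mutant libraries depended on the processing. In DMD, Plxna4 (0.86), Epha2 (-0.66) and Ntng1 (-0.63) were all short of the fold without nuclei over 5% mitochondrial UMIs, at 0.58, -0.54 and -0.54. At a Leiden resolution of 1.0 they were short of it as well, at 0.47, -0.50 and -0.57. In BMD, Plxna2 (-0.63) was short of the fold in each of these settings, at -0.56. Without called doublets it was below the count minimum, at -0.38. Slit3 was higher in both, with 27.4 CPM in WT against 94.9 in BMD and 83.1 in DMD, from 19, 51 and 49 UMIs, at log2 ratios of 1.79 (1.005 to 2.63) and 1.60 (0.81 to 2.45). With at least 1000 UMIs a nucleus or without called doublets Slit3 was below the count minimum, at BMD ratios of 1.48 and 2.28 and DMD ratios of 1.32 and 1.88. Slit2, the main Slit of this class, had 750, 597 and 514 CPM, highest in WT and within 1.5-fold. Robo2 had 253, 123 and 178 CPM, lower in BMD at -1.04 (-1.47 to -0.63), while Robo1 had 630, 480 and 626 CPM. Ntng1, a netrin-G held in the membrane by a lipid anchor, had 584, 398 and 378 CPM, at -0.55 and -0.63. Sema6d had 748, 646 and 768 CPM, so the low level in mutant cardiomyocyte-like nuclei was not seen here. Sema3a had 32 UMIs in BMD against 4 in WT and 5 in DMD, but 25 of the 32 came from 1 nucleus.

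Macrophage-like nuclei led for Plxnb2 and Plxna1. Of 14 members compared, 1 was higher in BMD (7.14%, against 8.27% of all genes) and 2 lower (14.3%, against 9.73%), and in DMD 3 were higher (21.4%, against 9.38%) and 2 lower (14.3%, against 8.12%). Plxnb2, a receptor of class 4 semaphorins, had 246 CPM in WT against 152 in BMD and 154 in DMD, at log2 ratios of -0.69 (-1.04 to -0.35) and -0.67 (-1.06 to -0.30). Sema3c had 138, 62.5 and 89.0 CPM, also lower in both. Ntn1 was higher in both, with 50.9, 95.04 and 109 CPM at 0.90 (0.32 to 1.49) and 1.10 (0.50 to 1.71). Plxna4 had 215, 281 and 379 CPM, past the fold in DMD at 0.82 (0.52 to 1.12). The free-RNA share of these nuclei was at most 5.78% in WT against 7.54% in BMD and 9.05% in DMD. The Ntn1 ratios were 1.12 and 1.35 with that share subtracted, beside 0.37 and 0.63 at a Leiden resolution of 1.0. Nuclei over 5% mitochondrial UMIs were 41.9% of the class in WT but 12.3% in BMD and 17.0% in DMD, and their part in these ratios was not tested. Without them 0 of the 5 DMD calls and none of the BMD calls remained. In DMD, Plxna4, Plxna2 and Plxnb2 were short of 1.5-fold at 0.16, 0.50 and -0.51, while Ntn1 and Sema3c, at 0.95 and -1.67, were below the count minimum. In BMD, Plxnb2 was short of the fold at -0.58, and Ntn1 and Sema3c, at 0.82 and -1.12, were below the count minimum. At a Leiden resolution of 1.0 Plxnb2 was at -0.58 in BMD and -0.50 in DMD, and with aggregate counts at -0.55 in BMD.

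T, B or NK cell-like nuclei led for the class 4 semaphorins known from lymphocytes. Sema4d had 636 CPM in WT against 477 in BMD and 517 in DMD, at least 5.5-fold above the next class in each library. Sema4a had 340, 310 and 211 CPM there. Schwann-like nuclei led for Sema3c, with 784, 991 and 948 CPM, and for Ntng1, with 2160, 1020 and 1089 CPM, from 22 to 56 nuclei a library. Sema3e, below the minimum in that small class, had 688, 962 and 527 CPM in it and 36 or fewer UMIs in each library. Endocardial-like nuclei led for Ntn1, with 1474, 1501 and 1071 CPM, closely followed by lymphatic-like nuclei with 1376, 1171 and 870 CPM.

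Every family had members that passed the count minimum, but not every member did. In 21 members no class reached 100 UMIs over the 3 libraries, among them Efna2, Efna3, Efna4, Slit1, Robo3, Robo4, Unc5a, Unc5d, Plxnb3, Ntn3 and Ntn5. These genes were not compared between genotypes. Robo4, the Robo known from endothelium, was in this group.

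The members stand in a wider pathway, described here by 60 further genes of receptors, adhesion partners and cytoskeletal effectors, 59 of them in the files. Their counts are to be read against the shares of all genes given above for each class. In cardiomyocyte-like nuclei 36 could be compared, of which 4 were past 1.5-fold higher and 2 lower in BMD, and 5 higher and 5 lower in DMD. Among 41 in fibroblast-like nuclei, 8 were higher and 5 lower in BMD, and 6 higher and 1 lower in DMD. Endothelial-like nuclei had 32 compared, 2 higher and 1 lower in BMD and 2 higher and 0 lower in DMD. Of 31 in pericyte- or smooth muscle-like nuclei, 2 were higher and 3 lower in BMD and 1 higher and 2 lower in DMD, and of 29 in macrophage-like nuclei, 3 higher and 4 lower in BMD and 4 higher and 4 lower in DMD. Their medians lay between -0.07 and 0.12 on the log2 scale.

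Several of these genes act beside the members described above. Enah, an actin regulator downstream of Robo, had 817 CPM in WT against 1791 in BMD and 2368 in DMD cardiomyocyte-like nuclei, and was past the fold upward in both libraries of the fibroblast-like, endothelial-like and macrophage-like classes as well. It was also common in free RNA, at 534, 1079 and 771 CPM, which by the upper estimate gave 30.9, 81.4 and 69.8 of its 49.6, 149 and 138 CPM in macrophage-like nuclei. With free RNA subtracted the Enah ratios were 1.88 and 1.91 there, 0.74 and 1.02 in endothelial-like nuclei, and 0.71 and 0.55 in fibroblast-like nuclei, the last short of 1.5-fold. Rgma, a ligand of the Dcc relative Neo1, had 177, 83.1 and 75.4 CPM in cardiomyocyte-like and 487, 268 and 313 CPM in fibroblast-like nuclei, lower in both mutants in each. Flrt2, a membrane protein that binds Unc5 receptors, had 273, 739 and 446 CPM in fibroblast-like nuclei, higher in both libraries as Unc5b was. The Slit-Robo GTPase-activating protein Srgap1 had 127, 340 and 241 CPM there, and Srgap3 41.2, 83.8 and 88.7 CPM. Dcc, the classical netrin receptor, had 10 or fewer UMIs in each of the 5 classes.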

How the data were processed

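Single-nucleus RNA was sequenced from 1 library each of WT, BMD and DMD rat heart. The authors deposited raw UMI counts per gene and barcode, made with Cell Ranger, with rn6 named in the submitters' processing notes; whether intronic reads were counted, and on which strand, is not given in the sources used here. The study's methods name a kit that reads transcript 3′ ends and its results a 5′ technology, so which end was counted is not settled. The file listed for WT is an aggregate of 3 libraries: its barcodes with suffixes 1 and 2 matched the separate BMD and DMD barcode lists, at 76.1% and 92.9% of their UMIs, and suffix 3 was taken as WT. The headers name Cell Ranger 6.0.1 for that aggregate and 4 for the other files.

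Barcodes were ranked by UMIs, and the top 9964 in WT, 6810 in BMD and 7890 in DMD, the numbers in the methods, counted as nuclei, with minima of 513, 525 and 546 UMIs. Counts were scaled to 10000 per nucleus, log-transformed and clustered with 2000 variable genes, 30 components, 15 neighbours and Leiden resolution 0.5 (scanpy 1.11.5, igraph 0.11.9), without the 69 members, mitochondrial genes and 8 cardiomyocyte genes of the study. A name needed 3 markers at 2-fold, with a pseudocount of 5 CPM and at least 10 UMIs. Scrublet called 5.11% to 10.6% of barcodes doublets, kept in the main setting. A leading class needed 20 nuclei in each library, which was decided with the clusters in view.

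UMIs were summed per class and library. Intervals at 95% are exact Poisson (levels), exact Clopper-Pearson (shares) and exact conditional binomial (ratios), from scipy 1.17.1. Only the ratio intervals were tested on simulated data, drawn as the independent Poisson counts that these intervals assume. The simulation could therefore not show how they fare when UMIs clump within nuclei. UMIs of 1 nucleus are not independent samples of the genotype. No p-value was computed. Free RNA came from barcodes with at most 50 UMIs, and its share is an upper estimate from marker genes of other classes. Named genes were Sema3a, Efnb2 and Unc5c, up to 6 members per leading class, members past 1.5-fold in both mutants, up to 4 past it in 1, and family partners of these. The members, lists and tests were chosen with earlier results of these data known. Alternatives covered nuclei, doublets, mitochondrial content, clustering, free RNA, averaging, aggregate counts, TMM scaling (edgeR 4.0.16) and count minima, and ratios within finer clusters, chosen after seeing the data. Settings that removed nuclei were clustered and named anew, so their classes can also hold nuclei that the main classes did not.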

Additional observations from a re-analysis of the deposited data

Results flagged for a closer look

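In 5 members the same mutant library was past 1.5-fold in opposite directions over WT in 2 classes. None of these differences between classes was tested, since each class had 1 library a genotype. The share of all genes that did the same was not computed, so the count of 5 cannot be read as particular to the members. In BMD, Robo2 was at a log2 ratio of 0.75 in fibroblast-like and -1.04 in pericyte- or smooth muscle-like nuclei. In DMD, Slit3 was at -1.10 in cardiomyocyte-like and 1.60 in pericyte- or smooth muscle-like nuclei. Ntn1 in DMD was at -0.60 in fibroblast-like and 1.10 in macrophage-like nuclei. Plxnb2 in DMD was at 0.83 in cardiomyocyte-like and -0.67 in macrophage-like nuclei. Sema3c in DMD was at 0.86 in endothelial-like and -0.63 in macrophage-like nuclei. Across the alternatives the Robo2 ratios ran from 0.70 to 0.84 and from -1.14 to -0.94, and the Slit3 ratios from -1.43 to -0.83 and from 0.93 to 1.88. The Ntn1 ratios ran from -0.62 to -0.48 and from 0.63 to 1.35, so that the fibroblast-like side was short of 1.5-fold in some alternatives. Those of Plxnb2 ran from 0.76 to 0.96 and from -0.76 to -0.50, and those of Sema3c from 0.63 to 2.37 and from -1.67 to -0.40, with the macrophage-like side of both short of 1.5-fold in some. Without nuclei over 5% mitochondrial UMIs none of Ntn1, Plxnb2 and Sema3c was called in macrophage-like nuclei, Ntn1 and Sema3c for want of UMIs. Robo2 in BMD was at 0.27 within the fibroblast-like Abca8a cluster, and Slit3 in DMD at -0.14 within the cardiomyocyte-like Hs3st2 cluster, which had 3 WT UMIs. In that Hs3st2 cluster Plxnb2 in DMD was at 0.12 (-1.21 to 1.70), from 6 WT and 24 DMD UMIs.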

How the results depend on the processing

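No paired analysis was possible because each genotype had 1 library. Of the recomputed log2 ratios of named genes, 718 stayed within their counting interval, 21 moved out of it and 1 changed sign, Sema3f in DMD cardiomyocyte-like nuclei, at 0.083 without called doublets. Counts of members past 1.5-fold depended most on the count minimum. With no minimum of UMIs, 30 (BMD) and 37 (DMD) members were past it in cardiomyocyte-like nuclei, 36 and 31 in fibroblast-like, 24 and 20 in endothelial-like, 28 and 27 in pericyte- or smooth muscle-like and 17 and 40 in macrophage-like nuclei, since few UMIs give wide ratios by counting alone. With at least 50 UMIs there were 17 and 15 in fibroblast-like nuclei and 5 and 9 in macrophage-like nuclei. The shares of all genes given above hold for the main count minimum only. Whether the member counts at other minima exceed the background at the same minimum was therefore not tested. In endothelial-like DMD nuclei the count was 2 without nuclei over 5% mitochondrial UMIs, with the mean over nuclei and with aggregate counts. In pericyte- or smooth muscle-like nuclei it was 5 for BMD with at least 1000 UMIs a nucleus, and for DMD 1 with that minimum, without mitochondria-rich nuclei or at a resolution of 1.0, and 2 without doublets. In macrophage-like DMD nuclei it was 0 of 11 without mitochondria-rich nuclei. The cause was not tested for these. The cardiomyocyte-like counts, at 13 and 10 members, ran from 11 to 14 for BMD and from 9 to 12 for DMD in the alternatives other than the count minima, and were 14 and 15 with at least 50 UMIs. In an alternative chosen after seeing the data, the ratios of members past the fold in both mutants were taken within finer clusters. The clusters used were those of Lsamp and Hs3st2 in cardiomyocyte-like and of Ltbp2 and Abca8a in fibroblast-like nuclei. The Arl14epl cluster was left out. Of these 40 values, 30 stayed within the counting interval, 7 moved out of it and 3 changed sign. All 3 were in the Hs3st2 cluster of cardiomyocyte-like nuclei: Sema3a at -0.73 in BMD and -0.58 in DMD, and Sema7a at 0.19 in BMD. In the Arl14epl cluster, outside that count, Sema3a in BMD was at -0.31 and Epha4 in DMD at -0.14. Sema3f was there at 0.05 in BMD and 0.43 in DMD. These values also had the other sign than in the class, from 13 or fewer UMIs a library. The number of members with 1 leading class ran from 21 with at least 1000 UMIs a nucleus to 32.

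The 21 members that no class counted 100 times were not compared, and the reason for their low counts was not tested. Epha8 and Robo3 among them had 0 UMIs in all nuclei. Differences between rats cannot be told apart from those between genotypes.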
